A study of Homo sapiens with 20 samples.

Results

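Described here are 66 genes of U2-OS cells whose mRNA was lower both in cells 7 days after irradiation (IR), which the study treats as senescent, and in non-irradiated cells with a knockdown of NFKBIA, and close to the untreated level 1.5 h after IR. They were chosen by their measured values. Counts were scaled to CPM, the count divided by the library's total times 1000000, and the median over the 5 libraries of a group was taken as log2(CPM + 0.5). A gene was included when its untreated median was at least 2 CPM, when both the 7 days and the knockdown medians lay 0.8 or more below the untreated one on this scale, and when the 1.5 h median lay within 0.6 of it in either direction. Of 20314 genes in the table, 12709 reached 2 CPM, 625 of these passed the bound at 7 days, 190 passed that in the knockdown, and 73 passed both. These 73 are 11.7% of the 625 and 38.4% of the 190, and both bounds use the same untreated libraries. The 1.5 h bound removed 7 genes (PIM1, WNT11, SHISA3, HMX2, MYCN, BMP4 and CHAC1), which left the 66 members, 0.519% of the genes above 2 CPM.

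U2-OS is a human osteosarcoma line with wild-type p53 that stops dividing after strong DNA damage. RNA was sequenced from 4 groups of 5 replicates: untreated cells, cells harvested 90 minutes (1.5 h) and 7 days after a dose of 20 Gy, and cells expressing an shRNA against NFKBIA without irradiation. All groups grew in DMEM with serum and no group carries another genetic change by the labels. By the study's methods, the knockdown cells came from transduction with a doxycycline-inducible shRNA vector and clonal selection, so that they may stem from few clones, and no library is labelled as a scrambled shRNA control, so that effects of vector, doxycycline and selection cannot be told apart from loss of NFKBIA in the comparison with untreated cells.

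NFKBIA encodes IκBα, which binds NF-κB dimers in the cytoplasm and keeps them from DNA. DNA damage releases NF-κB briefly, and resynthesised IκBα ends this first phase. In senescent cells NF-κB is active again for days and drives the inflammatory secretome called SASP. The members described here are single genes with less transcript in both states, and by their known roles they include some matrix proteins, surface receptors, adhesion molecules of neurons, muscle-type contractile proteins and genes of sterol synthesis.

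NFKBIA itself, which is not a member, was measured at 28.2, 23.5, 27.2, 34.3 and 39.1 CPM in untreated libraries. In knockdown libraries it was at 13.2, 11.4, 12.4, 12.2 and 12.7 CPM, below every untreated library (log2 fold change -1.36 ± 0.11 SE, edgeR adjusted p = 4.87e-09). At 7 days it was at 30.4, 28.7, 32.8, 32.4 and 31.0 CPM, within the untreated range (adjusted p = 0.886 in edgeR), and at 1.5 h between 76.0 and 87.9 CPM.

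Libraries held between 22535659 and 40390961 counts. Untreated replicate 5 had the fewest and was the only untreated library in lane 3, with the other 4 in lane 2. It held the highest untreated value of 39 of the 66 members and the lowest of 15, so every comparison with untreated cells below depends partly on it, and without it the rule gave 68 members, 57 of them shared. Neither the 7 days nor the knockdown libraries shared a lane with untreated ones. The groups were linked only in a chain, with untreated and 1.5 h in lane 3, 1.5 h and 7 days in lane 4, and 7 days and knockdown in lane 5, so that a fit with the lane as a factor could be made but ties untreated cells to the rest through untreated replicate 5 alone. Of 10 mesenchymal and osteoblast markers, VIM (2255 CPM), SPARC (2092 CPM), COL1A1 (1875 CPM), RUNX2 (95.0 CPM), CDH11 (34.2 CPM), ALPL (20.7 CPM) and SPP1 (10.4 CPM) were found in untreated cells at these medians, while BGLAP (1.05 CPM), COL1A2 (0.396 CPM) and SP7 (0.0248 CPM) were near 0. The summed leukocyte markers lay between 0.450 and 1.74 CPM over the groups' medians and the endothelial markers between 0.831 and 1.74 CPM. The epithelial markers summed to between 688 and 831 CPM, nearly all of it KRT8 and KRT18, with EPCAM and CDH1 below 4 CPM. In bulk RNA, fewer cells making a transcript and less transcript per cell cannot be told apart.

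The members were of moderate abundance. Their median untreated level was 15.1 CPM against 38.4 CPM over the 12709 genes above 2 CPM, and it ranged from 2.81 CPM for the gene ENSG00000186807, listed without a symbol, to 1247 CPM for COL6A3. Per kilobase of gene length, the highest untreated medians were those of MMP9 (80.5 CPM per kb), IGFBP5 (65.1 CPM per kb), LRRN1 (64.3 CPM per kb) and COL6A3 (63.5 CPM per kb), and the lowest was that of ACAN (0.381 CPM per kb). The median length of the members, 4721 bases, was close to that of all genes above 2 CPM, 4927 bases. By GENCODE 29, 65 of the members are known protein-coding genes, on 22 chromosomes, and 9 of these 65 lie on chromosome 2 (13.8%, against 6.66% of the genes above 2 CPM). For 32 of the 65 another annotated gene overlaps the locus, and since the strand setting of the counting is not given in the sources used here, reads of such a gene may be included. Named antisense RNAs overlap HTR2A, LMCD1, NTRK3, KIRREL3, ROR1 and LDLRAD4, and SLC12A5-AS1 overlaps MMP9.

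Because the rule used the differences from untreated cells, the following is a description of the members and no test of them. In the quasi-likelihood fit of edgeR over all 14992 genes tested, where a gene was called with an adjusted p under 0.05 and a log2 fold change above 0.5 in size, 66 of 66 members were called lower at 7 days than untreated, where 14.4% of all genes were. Their median log2 fold change was -1.66. In the knockdown 66 of 66 were called lower, against 7.53% of all genes, with a median of -1.28. With the lane as a factor 63 members were called lower at 7 days (19.5% of all genes) and 56 in the knockdown (14.0% of all genes). All 66 stayed below 0 in both comparisons in that fit, with medians of -1.93 and -1.44. That fit ties the untreated group to the others through untreated replicate 5 alone, and the knockdown through knockdown replicate 1 alone. The calls lost were those of LLGL2 (-1.10), MYL2 (-0.34) and WNT5B (-0.22) at 7 days. In the knockdown they were those of KIAA1210 (-1.93), LLGL2 (-1.28), ACKR3 (-0.95), MYL4 (-0.86), RGCC (-0.85), SYT8 (-0.72), MVK (-0.50), WNT5B (-0.50), FAM46B (-0.39) and NOX4 (-0.30). The libraries of the 7 days group lay below all untreated ones for 63 members (17.4% of all genes), the exceptions being WNT5B, MYL2 and SYNPO2L, and those of the knockdown for 65 (8.93% of all genes), the exception being ROR1. At 1.5 h 4 members were called, all lower (HTR2A, FOXS1, NRGN and LMCD1, with log2 fold changes from -0.71 to -0.50), where 3.66% of all genes were called in either direction. These calls depended on untreated replicate 5, which held NRGN at 25.2 CPM and the other untreated libraries at 9.19 to 11.1 CPM. Without it HTR2A alone was called (-0.54), with LMCD1 at -0.46, FOXS1 at -0.45 and NRGN at -0.29. The call of LMCD1 was also lost without untreated replicate 1 or 4 or 1.5 h replicate 1, 3 or 4, and that of NRGN without 1.5 h replicate 1, 2 or 3. With the lane as a factor, which rests on the same library, 29 members were called at 1.5 h, 26 lower and 3 higher, against 25.5% of all genes. Within lane 4, which held 2 libraries of the 1.5 h group and 2 of the 7 days group, 65 of 66 members were called lower at 7 days than at 1.5 h, with a median log2 fold change of -1.56, against 11.8% of all genes called lower. The rule used the libraries of both groups and its bounds already place 7 days below 1.5 h, so this count is a description too.

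**Figure D1:**
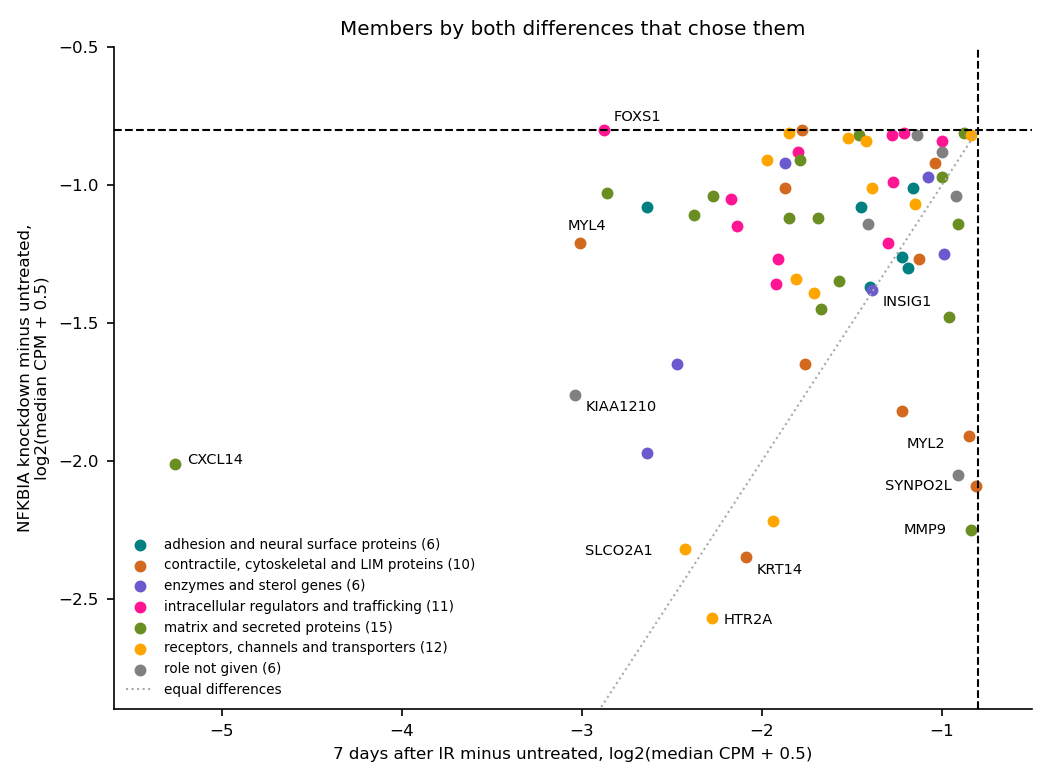
The 66 members by the differences that chose them, on the log2(median CPM + 0.5) scale: 7 days after IR minus untreated on the horizontal axis and NFKBIA knockdown minus untreated on the vertical axis. Dashed lines mark the bounds of the rule at -0.8, the dotted line marks equal differences, and colours give the members' roles. Most points lie above the dotted line, with CXCL14 (-5.26 at 7 days and -2.01 in the knockdown) farthest to the left, and MMP9, SYNPO2L and MYL2 lie low at the right edge.

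Just inside the bound at 7 days were SYNPO2L (-0.81), MMP9 (-0.84) and LPAR5 (-0.84), and just outside it SQLE (-0.78), APOBEC3B (-0.76) and ENSG00000215033 (-0.76). In the knockdown FOXS1 (-0.80), MISP (-0.80) and CCDC3 (-0.81) were just inside, and DOK7 (-0.80), MEIS1 (-0.79) and MYBL2 (-0.79) just outside. The members nearest the 1.5 h bound were HTR2A (-0.54), LMCD1 (-0.50) and LLGL2 (0.41), with PIM1 (0.61), WNT11 (-0.67) and SHISA3 (-0.71) beyond it. Nearest the minimum level were ENSG00000186807 (2.81 CPM), RGCC (2.93 CPM) and KLHDC8A (3.72 CPM), with IGFL3 (1.88 CPM), MYL10 (1.87 CPM) and GABRR1 (1.83 CPM) below it.

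How far the members differed between the states that the rule treats alike was asked by comparing 7 days with the knockdown, here called the low states, directly. The rule sets no bound on this difference, but it chose the members on the medians of the same libraries, and the bound was passed by 625 genes at 7 days and by 190 in the knockdown. The members' counts are therefore a description, set beside genes that were not chosen in this way, and no test of the members. Of the 66 members 36 were called in this comparison, where 25.7% of all 14992 genes were: 29 were lower at 7 days than in the knockdown (9.89% of all genes) and 7 were higher (15.8% of all genes), and 30 were not called. The median log2 fold change was -0.32, with quartiles of -0.83 and -0.01, against 0.00 over all genes, and 50 of 66 members lay below 0. The 5 libraries of one group lay wholly to one side of the other's for 38 of 66 members, 32 lower and 6 higher at 7 days. Over all 14992 genes they did so for 61.0%, with 4737 lower and 4409 higher, so the members' pooled share was close to that of all genes while their directions were less even. Within lane 5, with 3 libraries at 7 days and 1 knockdown library whose spread was taken from the other groups, 31 members were called, 28 lower and 3 higher, with a median of -0.39. Of all genes 23.6% were called there, 9.14% lower and 14.5% higher, with a median of 0.00.

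**Figure D2:**
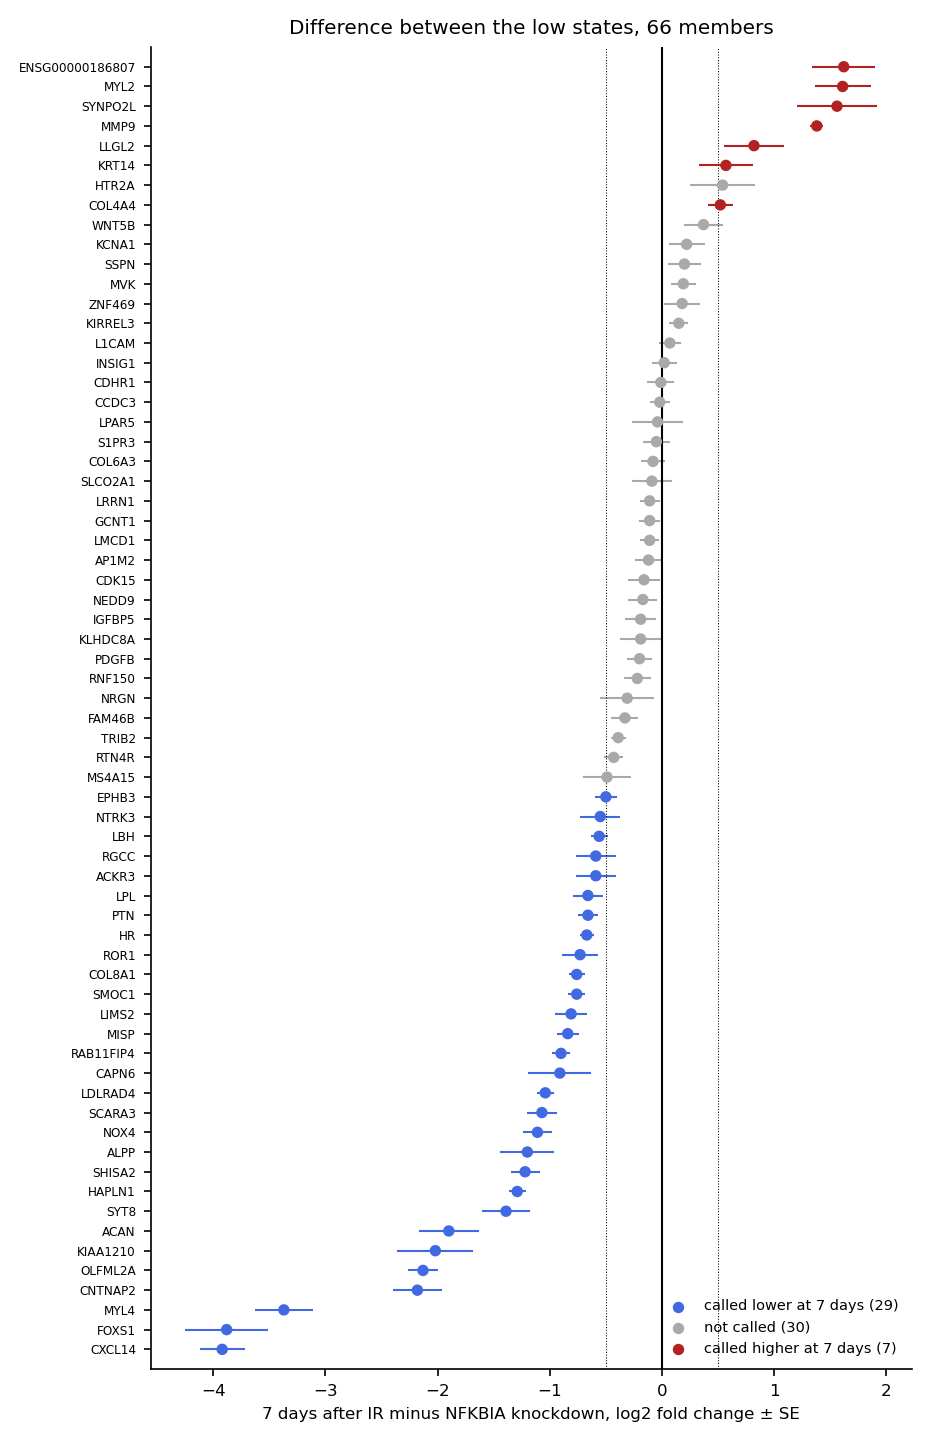
Log2 fold change of each of the 66 members, 7 days after IR minus NFKBIA knockdown, from the edgeR fit of 5 against 5 libraries, with bars of 1 SE and dotted lines at 0.5 in either direction. Points run from -3.92 for CXCL14 to 1.62 for ENSG00000186807, with 29 called lower at 7 days, 7 called higher and 30 not called.

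Matrix and secreted proteins were the largest role group, with 15 members. On the rule scale their median difference from untreated was -1.67 at 7 days and -1.12 in the knockdown. In the direct comparison 8 were called lower at 7 days and 2 higher (9.89% and 15.8% of all genes, 29 and 7 of all 66 members). CXCL14, a homeostatic chemokine of epithelia and stroma, was at 64.9, 50.7, 48.8, 49.7 and 81.9 CPM in untreated libraries and at 43.9, 45.5, 47.1, 43.6 and 58.3 CPM at 1.5 h. In the knockdown it was at 15.3, 11.4, 12.1, 13.0 and 12.3 CPM, and at 7 days at 0.878, 1.03, 0.641, 0.831 and 0.835 CPM. The 3 levels, untreated, knockdown and 7 days, did not overlap, and the 7 days libraries were lower than the knockdown (log2 fold change -3.92, SE 0.20, edgeR adjusted p = 5.99e-13). On the other strand of CXCL14 lies part of SLC25A48.

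Because CXCL14 had the lowest value of any member against the knockdown, its promoter is shown, as the 250 bases before the RefSeq start site (GRCh38.p14, chr5:135578992-135579241 on the minus strand), with GC boxes (GGGCGG) and an AP-1 site (TGANTCA) on either strand in capitals.
CXCL14: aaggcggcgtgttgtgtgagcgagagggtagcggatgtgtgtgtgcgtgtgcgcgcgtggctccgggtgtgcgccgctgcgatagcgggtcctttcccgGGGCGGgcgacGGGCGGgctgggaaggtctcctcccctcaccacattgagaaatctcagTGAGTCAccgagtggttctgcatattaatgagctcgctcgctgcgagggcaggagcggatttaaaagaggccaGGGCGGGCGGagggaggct
The AP-1 letters lie from -92 to -86, counted from the start site, and of the GC boxes the last pair overlap. Among the 47 members whose promoter could be matched, 3 held an AP-1 site (CXCL14, CAPN6 and FAM46B; 6.38%), against 3.70% of 9995 matched genes above 2 CPM. GC boxes were in 26 of the 47 (55.3%, against 68.1%).

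MMP9, the gelatinase that degrades collagen IV, showed the opposite order. It was at 186, 195, 175, 192 and 188 CPM untreated and at 95.5, 105, 104, 109 and 105 CPM at 7 days. In the knockdown it was at 38.8, 44.9, 36.7, 41.2 and 39.1 CPM, so that 7 days lay between untreated and knockdown cells without overlap with either (log2 fold change 7 days minus knockdown 1.38 ± 0.058 SE, edgeR adjusted p = 3.37e-14). MMP9 is widely known as an NF-κB target in inflamed tissue, and here its lowest libraries were those of the knockdown. Whether NF-κB has a part in this order was not tested.

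HAPLN1, the link protein that ties aggrecan to hyaluronan, was at 327, 304, 293, 284 and 345 CPM untreated and at 149, 140, 147, 138 and 136 CPM in the knockdown. At 7 days it was at 53.4, 68.2, 48.2, 59.8 and 58.0 CPM, lower than the knockdown (log2 fold change -1.29, SE 0.077, edgeR adjusted p = 8.27e-12), again with untreated, knockdown and 7 days apart. At 1.5 h it was between 305 and 334 CPM, within the untreated range. Its partner ACAN, the aggrecan core protein, was scarce, with 4.16, 3.37, 5.32, 3.33 and 6.43 CPM untreated. It was at 1.94, 1.32, 1.53, 2.47 and 1.77 CPM in the knockdown and at 0.585, 0.464, 0.466, 0.339 and 0.508 CPM at 7 days, lower there than in the knockdown (log2 fold change -1.90, SE 0.27, edgeR adjusted p = 3.25e-06). OLFML2A, an olfactomedin-domain glycoprotein of the matrix, followed the same order, at 14.7, 12.9, 15.8, 12 and 17.7 CPM untreated, at 8.19, 6.98, 6.89, 6.59 and 7.81 CPM in the knockdown and at 2.11, 1.76, 1.40, 1.60 and 1.34 CPM at 7 days (log2 fold change 7 days minus knockdown -2.13 ± 0.13 SE, edgeR adjusted p = 1.54e-11).

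The 3 collagen members behaved each in its own way between the states. COL6A3, a chain of the microfibrillar collagen VI and the most abundant member in CPM, was at 1132, 1402, 1335, 782 and 1247 CPM untreated, at 683, 622, 576, 619 and 640 CPM at 7 days and at 636, 675, 629, 770 and 634 CPM in the knockdown. The low states overlapped (log2 fold change -0.08 ± 0.11 SE). COL8A1, a short-chain collagen of vessel walls, was lower at 7 days (9.62 to 10.5 CPM) than in the knockdown (16.5 to 18.9 CPM), with a log2 fold change of -0.76 (SE 0.072, edgeR adjusted p = 1.12e-08). COL4A4, a chain of basement membrane collagen IV, was higher at 7 days (9.68 to 11.4 CPM) than in the knockdown (6.61 to 9.06 CPM), by 0.52 (SE 0.11, edgeR adjusted p = 2.92e-04), a call that was lost within lane 5 (0.32) and without any of 7 days replicates 3 and 4 and knockdown replicates 2, 4 and 5 (0.45 to 0.58 over all single libraries left out). Of 38 collagen genes tested, 12 were called higher and 12 lower at 7 days than untreated, and in the knockdown 1 was called higher and 11 lower. Over all genes tested, 16.7% were called higher and 14.4% lower at 7 days, and 5.18% higher and 7.53% lower in the knockdown. Between the states 15 were called higher at 7 days and 5 lower (15.8% and 9.89% of all genes). Of 50 other matrix glycoproteins and proteoglycans, 11 were called higher and 15 lower at 7 days, and 2 higher and 17 lower in the knockdown.

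IGFBP5, which binds insulin-like growth factors in the matrix, was the second most abundant member, at 402, 419, 459, 310 and 648 CPM untreated. It was at 168, 140, 122, 138 and 149 CPM at 7 days and at 164, 164, 154, 180 and 163 CPM in the knockdown. The low states overlapped (log2 fold change -0.19 ± 0.14 SE), and both were well below the lowest untreated library. The promoter of IGFBP5 is shown since, at the highest level, it holds the κB consensus, the site that NF-κB dimers bind, and the capitals mark a pair of overlapping matches to it from -176 to -166 (250 bases before the RefSeq start site, GRCh38.p14, chr2:216695550-216695799 on the minus strand).
IGFBP5: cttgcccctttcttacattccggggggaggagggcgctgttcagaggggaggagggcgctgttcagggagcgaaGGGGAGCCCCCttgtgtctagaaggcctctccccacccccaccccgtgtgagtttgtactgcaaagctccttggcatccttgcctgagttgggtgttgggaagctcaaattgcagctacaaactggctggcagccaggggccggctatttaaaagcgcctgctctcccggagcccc
The κB consensus, searched by its degenerate 10-base form on both strands, was found in 10 of the 47 matched members (IGFBP5, NTRK3, KIRREL3, ACAN, OLFML2A, MVK, SMOC1, FAM46B, LDLRAD4 and CCDC3; 21.3%), against 11.5% of the 9995 promoters. A match describes these letters, and binding was not measured here. The members' promoters had a median GC content of 64.0%, against 65.2%, and 17 of 47 held fewer than 10 CpG (36.2%, against 14.0%).

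The growth factors WNT5B and PDGFB were among the scarcer secreted members. WNT5B, a non-canonical Wnt ligand, was at 6.59, 5.69, 7.85, 9.31 and 3.82 CPM untreated, at 3.25, 3.92, 3.26, 3.02 and 4.10 CPM at 7 days and at 2.84, 3.17, 2.72, 2.25 and 2.64 CPM in the knockdown. Its 7 days libraries overlapped both other groups. PDGFB, the B chain of platelet-derived growth factor, lay between 5.59 and 7.73 CPM untreated, between 1.97 and 2.68 CPM at 7 days and between 2.24 and 2.96 CPM in the knockdown, and its 1.5 h libraries (8.25 to 9.79 CPM) were all above the untreated ones. The others were SMOC1, a calcium-binding matrix protein (log2 fold change 7 days minus knockdown -0.76), PTN, the growth factor pleiotrophin (-0.66), LPL, the lipase of capillary walls (-0.66), and CCDC3, a secreted coiled-coil protein (-0.02, not called). CCDC3 lay between 33.3 and 45.0 CPM untreated, between 21.7 and 26.2 CPM at 7 days and between 21.0 and 26.4 CPM in the knockdown.

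Receptors, channels and transporters made up 12 members, of which 6 were called lower at 7 days than in the knockdown and none higher (9.89% and 15.8% of all genes, 29 and 7 of all 66 members). SLCO2A1, which carries prostaglandins into cells for breakdown, had the deepest shared difference of all members, ranked by the smaller of both. It was at 32.3, 40.0, 38.1, 29.0 and 63.0 CPM untreated and at 32.3, 32.7, 39.4, 33.6 and 30.2 CPM at 1.5 h. At 7 days it was at 6.55, 7.03, 5.83, 6.74 and 6.64 CPM and in the knockdown at 7.20, 7.90, 6.44, 7.42 and 6.29 CPM. The low states overlapped, with a log2 fold change of -0.09 ± 0.18 SE, and both lay far below the lowest untreated library.

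Of 118 G protein-coupled receptors and regulators tested, 33 were called higher and 31 lower at 7 days, 18 higher and 18 lower in the knockdown, and 4 were members. The shares of all genes were 16.7% higher and 14.4% lower at 7 days, and 5.18% and 7.53% in the knockdown. HTR2A, a serotonin receptor coupled to Gq, was at 7.18, 6.87, 6.91, 7.21 and 11.4 CPM untreated and between 4.13 and 5.48 CPM at 1.5 h, below every untreated library. It was at 1.08, 1.76, 0.496, 0.955 and 1.74 CPM at 7 days and at 1.08, 0.80, 0.793, 0.674 and 0.723 CPM in the knockdown, overlapping (log2 fold change 0.54 ± 0.29 SE, edgeR adjusted p = 0.121). Without 7 days replicate 3 this became a call, at 0.73 (0.35 to 0.73 over all single libraries left out). Within lane 5 the value was -0.06. S1PR3, a sphingosine 1-phosphate receptor, was at 63.2, 47.6, 61.7, 44.2 and 81.6 CPM untreated, between 26.6 and 28.9 CPM at 7 days and between 27.8 and 30.4 CPM in the knockdown. LPAR5, a lysophosphatidic acid receptor, was at 8.17, 7.12, 9.14, 10.1 and 20.1 CPM untreated, between 4.08 and 5.15 CPM at 7 days and between 3.65 and 5.95 CPM in the knockdown. For these lipid receptors the log2 fold changes between the states were -0.05 ± 0.12 SE and -0.04 ± 0.23 SE. ACKR3, an atypical receptor that scavenges CXCL12, was lower at 7 days (1.26 to 1.87 CPM) than in the knockdown (1.91 to 2.72 CPM), with a log2 fold change of -0.59 (SE 0.18, edgeR adjusted p = 0.00765).

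The kinase receptors were lower at 7 days than in the knockdown. ROR1, a receptor-like kinase for Wnt5 ligands, was at 47.3, 53, 44.6, 30.2 and 74.7 CPM untreated, at 25.5, 27.9, 26.4, 34.0 and 26.0 CPM in the knockdown and at 15.9, 16.2, 18.6, 16.8 and 15.6 CPM at 7 days. Its lowest untreated library was below its highest knockdown library, while 7 days and knockdown did not overlap (log2 fold change -0.73 ± 0.16 SE, edgeR adjusted p = 6.34e-04). NTRK3, the receptor of neurotrophin-3, and EPHB3, a receptor for ephrin-B ligands, were called with log2 fold changes of -0.55 and -0.50, close to the threshold. NTRK3 lay between 4.36 and 6.66 CPM untreated, between 0.924 and 1.49 CPM at 7 days and between 1.31 and 2.15 CPM in the knockdown, so that the low states overlapped. EPHB3 lay between 8.12 and 12.3 CPM untreated, between 3.16 and 3.61 CPM at 7 days and between 4.30 and 5.47 CPM in the knockdown, without overlap. These calls were lost without some single libraries, that of NTRK3 without 7 days replicate 4 or knockdown replicate 1 (-0.66 to -0.48 over all left out) and that of EPHB3 without 7 days replicate 4 or 5 or knockdown replicate 1 or 4 (-0.56 to -0.48). KCNA1, a voltage-gated potassium channel of axons, was at 14.4, 11.2, 13.2, 8.85 and 14.6 CPM untreated, at 2.34, 3.28, 3.09, 2.80 and 3.27 CPM at 7 days and at 2.75, 2.46, 2.41, 2.92 and 2.21 CPM in the knockdown, with no call between the states (0.22 ± 0.16 SE). SCARA3, a scavenger receptor-like protein (-1.07), and LDLRAD4, an inhibitor of TGF-β signalling (-1.04), were called lower at 7 days, and MS4A15, a tetraspanning membrane protein, was not called (-0.49), except without 7 days replicate 3 or knockdown replicate 2 or 4 (-0.70 to -0.36 over all left out).

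Of 55 Wnt ligands, receptors, inhibitors and targets tested, with ROR1 and WNT5B among them, 7 were called higher and 17 lower at 7 days, and 2 higher and 11 lower in the knockdown. Of 43 receptor tyrosine kinases and their ligands, 13 were called higher and 10 lower at 7 days, and 4 higher and 5 lower in the knockdown. Axon guidance genes, 76 with EPHB3 as the one member, were called higher in 25 and lower in 21 cases at 7 days, and higher in 6 and lower in 16 in the knockdown. Among 129 ion channel genes, 35 were called higher and 17 lower at 7 days, and 9 higher and 22 lower in the knockdown. All 4 lists stand against 16.7% of all genes called higher and 14.4% lower at 7 days, and 5.18% and 7.53% in the knockdown.

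**Figure D3:**
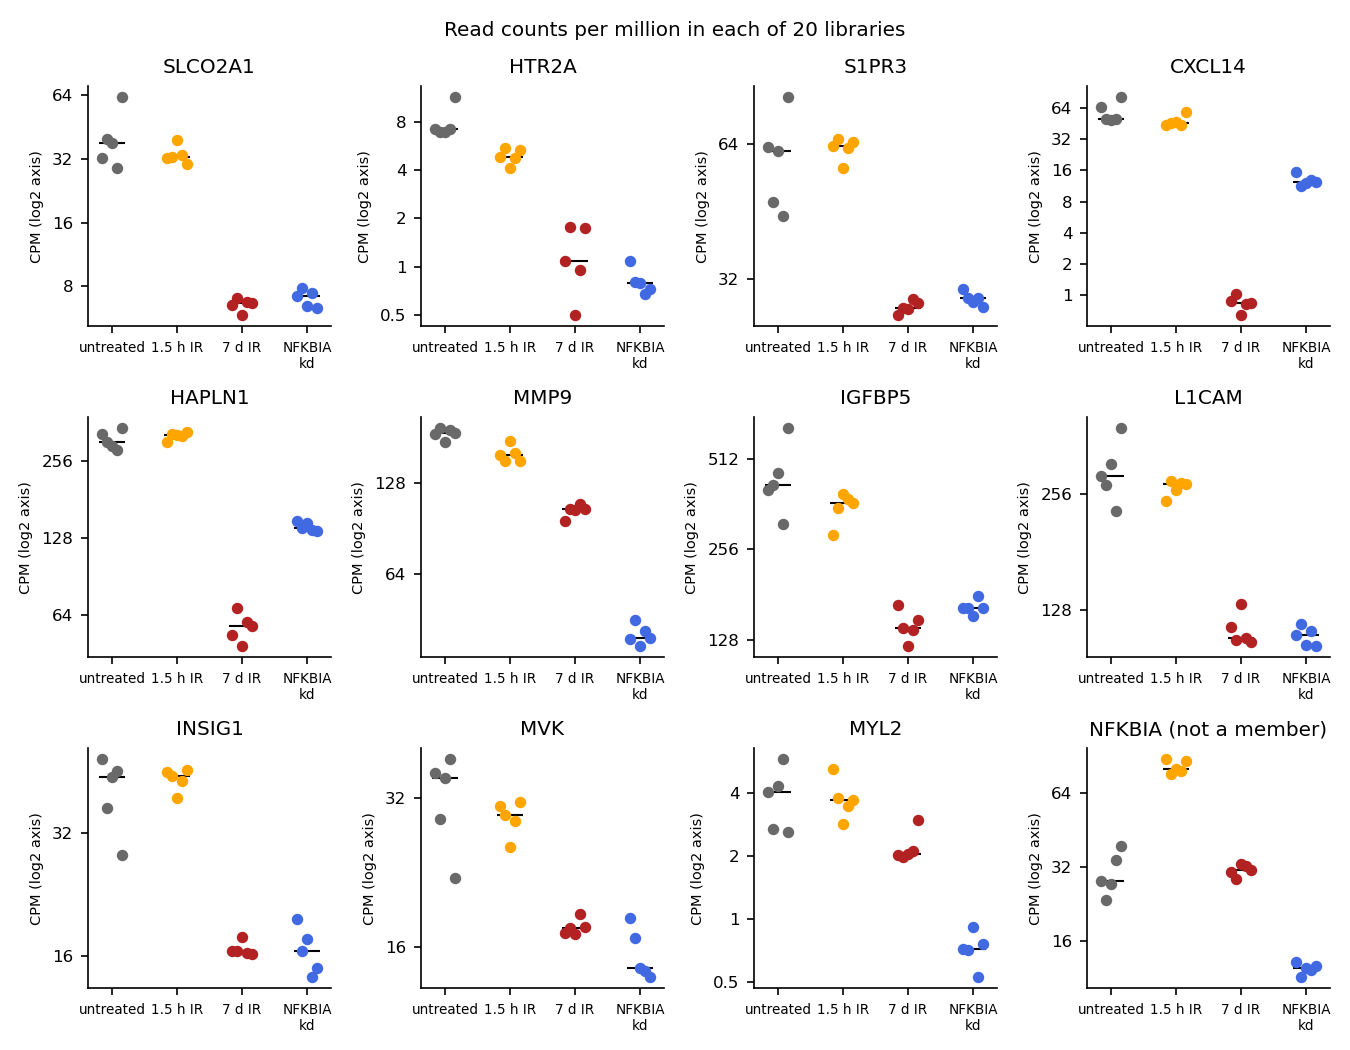
CPM of 11 members and of NFKBIA, the target of the shRNA, in each of the 20 libraries, on a log2 axis with 1 panel per gene. Points are libraries and lines are group medians. SLCO2A1, S1PR3, L1CAM, INSIG1 and IGFBP5 overlap between 7 days and knockdown, CXCL14 and HAPLN1 are lowest at 7 days, MMP9 and MYL2 are lowest in the knockdown, and NFKBIA at 7 days lies within the untreated range.

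Adhesion and neural surface proteins were 6 members, and for 5 of them no call was made between the states, as for most genes (25.7% of all genes were called, and 36 of all 66 members). L1CAM, the adhesion molecule of growing axons, was at 286, 270, 307, 231 and 381 CPM untreated, at 116, 107, 133, 108 and 106 CPM at 7 days and at 110, 118, 104, 113 and 103 CPM in the knockdown. LRRN1, a leucine-rich repeat protein of neurons, was at 274, 271, 294, 241 and 368 CPM untreated, at 139, 123, 128, 114 and 119 CPM at 7 days and at 138, 134, 136, 142 and 130 CPM in the knockdown. In both the low states overlapped, with log2 fold changes of 0.07 ± 0.10 SE for L1CAM and -0.11 ± 0.089 SE for LRRN1. The exception was CNTNAP2, a neurexin-like protein that clusters potassium channels along axons, which was at 5.54, 4.89, 5.97, 4.56 and 8.34 CPM untreated and at 2.36, 2.4, 2.32, 2.36 and 2.64 CPM in the knockdown. It was at 0.644, 0.332, 0.466, 0.339 and 0.871 CPM at 7 days, lower than the knockdown (log2 fold change -2.18, SE 0.22, edgeR adjusted p = 3.38e-08). The others were RTN4R, the Nogo receptor (-0.43, and called at -0.51 without 7 days replicate 4), KIRREL3, a nephrin-like synaptic adhesion molecule (0.15), and CDHR1, a cadherin of photoreceptors (-0.01). Of 41 neural adhesion and synapse-organising genes tested, 13 were called higher and 12 lower at 7 days (16.7% and 14.4% of all genes), and 3 higher and 8 lower in the knockdown (5.18% and 7.53% of all genes).

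The contractile, cytoskeletal and LIM proteins were 10 members, of which 4 were called higher at 7 days than in the knockdown and 3 lower (15.8% and 9.89% of all genes, 7 and 29 of all 66 members). MYL2, the regulatory myosin light chain of heart ventricle, was at 4.07, 2.71, 4.33, 5.85 and 2.62 CPM untreated, at 2.02, 1.99, 2.04, 2.12 and 2.98 CPM at 7 days and at 0.717, 0.707, 0.915, 0.524 and 0.759 CPM in the knockdown. Its 7 days libraries overlapped the untreated ones and lay above all knockdown libraries (log2 fold change 1.61 ± 0.25 SE, edgeR adjusted p = 1.25e-05). MYL4, the atrial essential light chain, had the opposite order, at 4.25, 3.70, 4.53, 4.40 and 3.95 CPM untreated, at 2.12, 1.69, 1.56, 1.24 and 1.37 CPM in the knockdown and at 0.263, 0.0664, 0.0874, 0.246 and 0.0726 CPM at 7 days (-3.37 ± 0.26 SE, edgeR adjusted p = 3.72e-10). The 7 days values of MYL4 rest on 9, 2, 3, 8 and 2 reads, so the size of this difference is uncertain.

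SYNPO2L, an actin-binding protein of muscle Z-discs, was at 5.95, 3.20, 5.99, 4.75 and 14.3 CPM untreated, at 2.4, 3.19, 2.57, 3.54 and 3.81 CPM at 7 days and at 1.11, 0.892, 1.34, 0.899 and 1.01 CPM in the knockdown (7 days minus knockdown 1.56 ± 0.36 SE, edgeR adjusted p = 9.81e-04). LLGL2, a scaffold of basolateral polarity, was at 1.64, 2.39, 1.60, 1.76 and 1.85 CPM at 7 days and at 1.52, 0.984, 1.43, 0.337 and 0.831 CPM in the knockdown, against 3.59 to 6.46 CPM untreated. It was higher at 7 days by 0.82 on the log2 scale (SE 0.27, edgeR adjusted p = 0.0134), and within lane 5 the value was 0.19 and the call was lost. KRT14, the keratin of basal epithelial cells, was at 5.30, 3.86, 4.13, 5.69 and 4.53 CPM untreated, at 0.790, 1.16, 0.641, 0.677 and 0.436 CPM at 7 days and at 0.657, 0.40, 0.488, 0.487 and 0.470 CPM in the knockdown, and reads of near-identical keratins may be included. The groups overlapped between the states, and the call of 0.57 (SE 0.24, edgeR adjusted p = 0.0437) was lost without any of 7 days replicates 1, 2 and 4 and knockdown replicates 2 to 5 (0.35 to 0.70 over all single libraries left out). Within lane 5 the value was -0.14. Of the other epithelial markers, KRT8 was at medians of 338 CPM untreated, 226 CPM at 7 days and 216 CPM in the knockdown, KRT18 at 490, 454 and 483 CPM, EPCAM at 3.02, 1.92 and 3.18 CPM and CDH1 at 1.73, 1.14 and 0.427 CPM, and their part in the level of KRT14 was not tested.

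LMCD1, a LIM protein that binds GATA factors, was at 70.9, 52.6, 69.2, 74.6 and 74.8 CPM untreated, at 20.2, 20.6, 20.2, 21.1 and 21.5 CPM at 7 days and at 25.9, 21.7, 22.6, 20.6 and 22.2 CPM in the knockdown, with no call between the states (-0.11 ± 0.087 SE). At 1.5 h it was between 44.3 and 52.4 CPM, below every untreated library. The others were MISP, which positions the mitotic spindle (-0.84, called), LIMS2, a LIM protein of integrin adhesions (-0.81, called), NEDD9, a focal adhesion scaffold (-0.17), and SSPN, a member of the dystrophin complex (0.20). MISP lay between 57.3 and 77.7 CPM untreated, between 16.8 and 19.7 CPM at 7 days and between 25.9 and 36.9 CPM in the knockdown. Of 36 contractile and cytoskeletal genes of mesenchyme, none of them a member, 4 were called higher and 20 lower at 7 days (16.7% and 14.4% of all genes), and 0 higher and 11 lower in the knockdown (5.18% and 7.53% of all genes).

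Of the 6 enzymes and sterol genes, INSIG1 and MVK belong to cholesterol metabolism. INSIG1 holds the SREBP escort SCAP in the endoplasmic reticulum and is itself an SREBP target, and MVK phosphorylates mevalonate early in the pathway. INSIG1 was at 48.6, 36.8, 43.8, 45.4 and 28.3 CPM untreated and at 45.2, 44.1, 39.0, 43.0 and 45.7 CPM at 1.5 h. It was at 16.5, 16.5, 17.8, 16.3 and 16.2 CPM at 7 days and at 19.7, 16.5, 17.6, 14.2 and 15.0 CPM in the knockdown. The low states overlapped, with a log2 fold change of 0.02 ± 0.11 SE. MVK was at 35.9, 29.1, 35.1, 38.4 and 22.1 CPM untreated, at 17.1, 17.5, 17.0, 18.7 and 17.6 CPM at 7 days and at 18.3, 16.7, 14.5, 14.3 and 13.9 CPM in the knockdown (0.19 ± 0.11 SE, not called). For both genes untreated replicate 5 was the lowest of its group and still above all libraries of the low states. MMAB lies on the opposite strand of MVK and overlaps it.

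The promoters of INSIG1 and MVK are shown because these are the members of one pathway with nearly equal levels in both low states (250 bases before the RefSeq start sites, GRCh38.p14, chr7:155297628-155297877 on the plus strand and chr12:109573544-109573793 on the plus strand). Capitals mark GC, CCAAT and TATA boxes and the κB consensus, on either strand.
INSIG1: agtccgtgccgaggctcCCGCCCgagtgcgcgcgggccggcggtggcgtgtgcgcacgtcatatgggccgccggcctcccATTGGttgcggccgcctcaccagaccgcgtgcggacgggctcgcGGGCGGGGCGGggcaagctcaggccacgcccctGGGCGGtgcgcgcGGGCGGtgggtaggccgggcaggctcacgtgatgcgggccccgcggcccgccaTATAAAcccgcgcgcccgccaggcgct
MVK: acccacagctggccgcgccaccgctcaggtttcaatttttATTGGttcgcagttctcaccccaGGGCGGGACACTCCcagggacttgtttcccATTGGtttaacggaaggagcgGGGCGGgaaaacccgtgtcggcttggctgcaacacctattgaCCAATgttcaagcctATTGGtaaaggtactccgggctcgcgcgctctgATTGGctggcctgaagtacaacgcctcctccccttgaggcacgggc
In INSIG1 the TATA box lies from -27 to -22 and 5 GC boxes lie upstream of it, with 1 CCAAT box from -170 to -166. In MVK 5 CCAAT boxes lie between -210 and -42, and the κB consensus from -183 to -174 overlaps a GC box. The TATA box (TATAAA) was in 6 of the 47 matched members (12.8%, against 5.02% of 9995) and the CCAAT box in 13 (27.7%, against 34.9%). The letters TCACNCCAC, a common form of the sterol regulatory element, were in 0 of 47 windows, and in 0.940% of the 9995. E-boxes (CANNTG) were in 29 members (61.7%, against 52.7%), the cAMP response element TGACGTCA in 1, LMCD1 (2.13%, against 2.94%), and the cell cycle homology region TTTGAA in 4 (8.51%, against 8.40%).

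Of 25 cholesterol and SREBP target genes tested, 16 were called lower and 0 higher than untreated at 7 days, where 14.4% of all genes were called lower and 16.7% higher, and 19 were called lower and 1 higher in the knockdown, where 7.53% and 5.18% of all genes were. Both comparisons share the untreated libraries. The list's median log2 fold change was -0.70 at 7 days and -0.70 in the knockdown. Most of these genes stopped short of the bounds that chose the members. SQLE, the squalene epoxidase, was at medians of 239 CPM untreated, 139 CPM at 7 days and 99.5 CPM in the knockdown. SREBF2, the regulator of cholesterol synthesis, was at 466, 297 and 304 CPM in the same order. SREBF1, which governs fatty acid synthesis, was called lower at 7 days (-1.25) and higher in the knockdown (0.52). In the comparison of 7 days with the knockdown 2 of the 25 were called higher and 3 lower (15.8% and 9.89% of all genes).

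**Figure D4:**
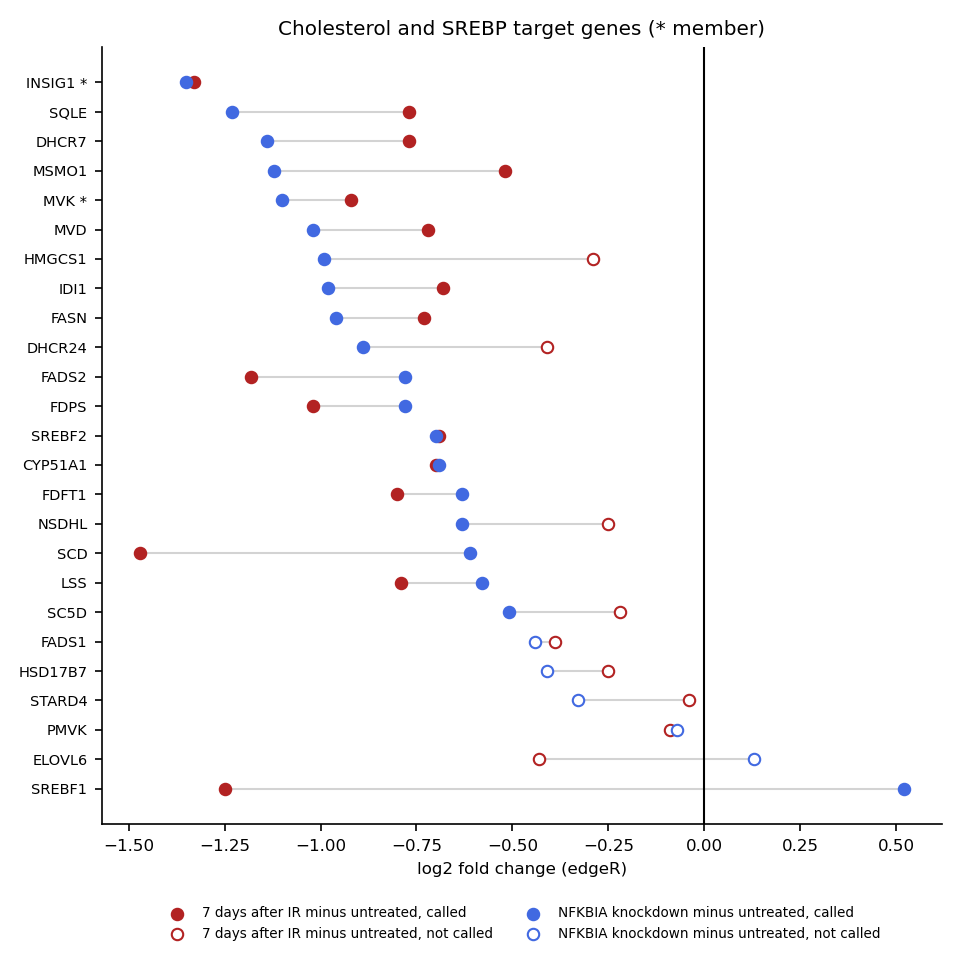
Log2 fold change against untreated cells for each of 25 cholesterol and SREBP target genes at 7 days after IR and in the NFKBIA knockdown, from edgeR with 5 libraries per group. Filled points are called and open points are not, lines join the values of a gene, and asterisks mark the members INSIG1 and MVK. Called points lie below 0 for 16 genes at 7 days and 19 in the knockdown, and SREBF1 alone is called higher, in the knockdown.

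The other enzymes were more unequal. ALPP, the placental alkaline phosphatase, was at 4.95, 5.44, 5.72, 7.01 and 6.66 CPM untreated, at 0.926, 1.57, 1.40, 1.09 and 0.759 CPM in the knockdown and at 0.468, 0.498, 0.612, 0.339 and 0.581 CPM at 7 days, lower there than in the knockdown (log2 fold change -1.20, SE 0.24, edgeR adjusted p = 2.74e-04), though not called within lane 5 (-0.85). Reads of its near-identical germ cell copy may be included. NOX4, the constitutive NADPH oxidase (-1.11), and CAPN6, a calpain without protease activity (-0.91), were called lower at 7 days, and GCNT1, which branches O-glycans, was not called (-0.11).

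Of 11 intracellular regulators and trafficking proteins, 7 were called lower at 7 days than in the knockdown and none higher (9.89% and 15.8% of all genes, 29 and 7 of all 66 members). FOXS1, a forkhead factor of neural crest and pericytes, was at 4.25, 3.78, 4.04, 3.94 and 8.30 CPM untreated and at 2.36, 2.86, 2.10, 1.61 and 2.06 CPM in the knockdown. It was at 0.0878, 0.0664, 0.117, 0.308 and 0.145 CPM at 7 days, lower than the knockdown (log2 fold change -3.88, SE 0.37, edgeR adjusted p = 1.05e-08). In the knockdown it lay nearest of all members to the bound of the rule, while at 7 days few reads remained. The other genes called were SYT8, a synaptotagmin (-1.39), SHISA2, which retains Wnt and FGF receptors in the endoplasmic reticulum (-1.22), RAB11FIP4, a Rab11 effector of recycling endosomes (-0.90), HR, a corepressor of the vitamin D receptor (-0.67), RGCC, a regulator of the cell cycle (-0.59), and LBH, a transcriptional cofactor of limb and heart (-0.56). RGCC was scarce, between 2.07 and 3.28 CPM untreated, between 0.831 and 1.17 CPM at 7 days and between 1.22 and 1.76 CPM in the knockdown. The genes not called were TRIB2, a pseudokinase (-0.39), NRGN, a calmodulin-binding protein of neurons (-0.31), CDK15, a cyclin-dependent kinase (-0.16), and AP1M2, a clathrin adaptor of epithelial cells (-0.12). Of 95 SOX, FOX, TBX and KLF factors tested, 12 were called higher and 26 lower at 7 days (16.7% and 14.4% of all genes), and 4 higher and 17 lower in the knockdown (5.18% and 7.53% of all genes).

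For 6 members no role is given. KIAA1210 was at 5.98, 8.61, 6.73, 4.07 and 9.76 CPM untreated, at 1.55, 1.63, 1.37, 2.47 and 1.99 CPM in the knockdown and at 0.673, 0.531, 0.379, 0.339 and 0.218 CPM at 7 days, where it was lower than in the knockdown (log2 fold change -2.02, SE 0.34, edgeR adjusted p = 3.08e-05). ENSG00000186807 was at 2.17, 2.46, 3.09, 2.81 and 3.64 CPM untreated, at 1.26, 1.33, 0.758, 0.801 and 1.42 CPM at 7 days and at 0.598, 0.431, 0.214, 0.300 and 0.217 CPM in the knockdown. It was higher at 7 days than in the knockdown by 1.62 on the log2 scale (SE 0.28, edgeR adjusted p = 4.23e-05), the highest value of any member, while within lane 5 the value was 0.70 and the call was lost. ZNF469, a zinc finger gene mutated in brittle cornea syndrome, was at 10.5, 12.6, 11.2, 6.98 and 15.3 CPM untreated, between 5.57 and 5.88 CPM at 7 days and between 4.09 and 6.18 CPM in the knockdown. RNF150 (-0.22), FAM46B (-0.33) and KLHDC8A (-0.19) were not called between the states. KLHDC8A lay between 3.06 and 5.19 CPM untreated, between 1.37 and 2.18 CPM at 7 days and between 1.48 and 2.63 CPM in the knockdown.

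Some gene groups known from senescent cells or from the osteoblast lineage held 1 member or none. Their counts stand against 16.7% of all genes called higher and 14.4% lower at 7 days than untreated, and 5.18% and 7.53% in the knockdown. Of 42 proliferation genes 33 were called lower at 7 days, 9 in the knockdown and none higher in either, and 26 were lower at 7 days than in the knockdown, where 9.89% of all genes were. Of 37 secreted chemokines and interleukins, with CXCL14 as the one member, 20 were called higher and 5 lower at 7 days, and 8 higher and 4 lower in the knockdown. Of 16 osteoblast identity genes, none of them a member, 5 were called higher and 3 lower at 7 days, and 0 higher and 5 lower in the knockdown.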

How the data were processed

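RNA was extracted in quintuplicate and made into stranded mRNA libraries for sequencing on an Illumina HiSeq instrument, per the labels and the methods. The submitters' processing notes name bcl2fastq, Trimmomatic, STAR 2.4.2a and the build hg19, and the counting tool, annotation and strand setting are not given in the sources used here. The authors deposited raw read counts for 20314 genes in 20 libraries, without normalization, and 1679 genes carry no symbol. The study calls the replicates of the untreated and irradiated groups biological, without saying whether they were separate cultures, so p values measure the spread between these libraries.

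Members were found on CPM by the rule given with them. Counts were then fitted in R 4.3.3 with edgeR 4.0.16 (TMM, filterByExpr with a minimum count of 10, quasi-likelihood F test, 1 term per group over all 20 libraries), which left 14992 genes, with the Benjamini-Hochberg adjustment made over all of them. A gene was called with an adjusted p under 0.05 and a log2 fold change above 0.5 in size. The test was first tried on simulated counts of the 7 days against knockdown comparison, where edgeR found 87 of 100 genes changed by log2 1 and 100 of 100 changed by log2 2, and called 1 unchanged gene. The simulated libraries had no lane effect, and all but these changed genes had the same mean in every group. The rate of false calls in the real comparison was therefore not measured.

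The members, gene lists and tests were chosen with earlier results of these data known. Some genes of the sterol list are not reported here. Roles were assigned by hand from background knowledge once the members were seen. Values by library, or their range, in the groups compared were set out for the 8 members with the deepest shared difference, the 5 most abundant, up to 5 with the largest calls in each direction between the low states, members of the gene lists (up to 4 per list), those nearest the bounds of the rule, and NFKBIA. All other members are named with their role, or without it where no role is given. Alternatives were RLE factors, library size alone, DESeq2 1.42.0, other filters, a fit of 2 groups, the replicate number or the lane as a factor, other forms of the rule and leaving out each library. The comparisons within lane 4, and within lane 5 for all genes, and the alternatives for 1.5 h were added after seeing the data. Same-numbered libraries correlated between -0.25 and 0.12 in their deviations from the group means, so the numbers did not pair the libraries. Promoters were those of RefSeq on GRCh38.p14, matched by gene identifier for 47 of 66 members. Overlapping genes were taken from GENCODE 29, which is on another build than the counts, so no coordinates are given from it. Figures were drawn with matplotlib 3.10.9.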

Additional observations from a re-analysis of the deposited data

Results flagged for a closer look

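Among the 66 members and NFKBIA, 268 groups of 5 libraries were searched for a library far from the other 4 by Dixon's test, which chance flags in about 1 in 20 groups. It marked 22, where 13.4 would come from chance, and 7 of them were untreated replicate 5, the shallowest library. In untreated replicate 5, HTR2A was at 11.4 CPM with the other 4 between 6.87 and 7.21 CPM, and FOXS1 at 8.30 CPM with the others between 3.78 and 4.25 CPM. The same library held SYNPO2L at 14.3 CPM, with the others between 3.20 and 5.99 CPM, LPAR5 at 20.1 CPM, with the others between 7.12 and 10.1 CPM, and NRGN at 25.2 CPM, with the others between 9.19 and 11.1 CPM. It also held CAPN6 at 16.4 CPM, with the others between 6.68 and 8.86 CPM, and CDK15 at 12.7 CPM, with the others between 7.63 and 8.83 CPM. In untreated replicate 2, LMCD1 was low at 52.6 CPM, with the others between 69.2 and 74.8 CPM, and so was KIRREL3 at 10.8 CPM. At 1.5 h, CXCL14 was high at 58.3 CPM in replicate 5, CDHR1 low at 13.6 CPM in replicate 3 and LPL low at 5.36 CPM in replicate 1. At 7 days, MYL2 was high at 2.98 CPM in replicate 5, KIRREL3 at 6.17 CPM in replicate 2, and INSIG1 at 17.8 CPM and SMOC1 at 40.1 CPM in replicate 3, where NEDD9 was low at 16.7 CPM. In the knockdown, CNTNAP2 was high at 2.64 CPM in replicate 5, NRGN at 5.63 CPM in replicate 2, and ROR1 at 34.0 CPM, HR at 28.7 CPM and TRIB2 at 150 CPM in replicate 4.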

How the results depend on the processing

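The number of members was set by the bounds: 37 genes met falls of 1 or more, 53 an offset of 1 and 84 an offset of 0.1 on the log scale, 77 medians replaced by means, 83 TMM factors, 63 a band of 0.4 and 55 a minimum of 5 CPM. Leaving out each library gave 63 to 84 members, the most without untreated replicate 2. Membership changed more than these counts: 55 of the 64 members without untreated replicate 1, and 56 of the 77 by means, were among the 66. Members called between 7 days and the knockdown numbered 33 to 37 with a library left out, 30 of the 61 tested with at least 10 counts in every library, 31 with the lane as a factor and 36 by DESeq2. That filter removed 5 members, all of them called before (ENSG00000186807, FOXS1, KIAA1210, LLGL2 and MYL4). All genes called numbered 3814 to 3895 with a library left out, 3083 of 13703 with that filter and 3539 with the lane as a factor, against 3857. With the lane as a factor 63 members were called lower at 7 days than untreated and 56 in the knockdown, while 66 were in each with any library left out. At 1.5 h 4 members were called, 29 with the lane as a factor, and 1 to 5 with a library left out, the fewest without untreated replicate 5. The calls of ENSG00000186807 (0.70) and LLGL2 (0.19) were lost with the lane as a factor and within lane 5. For 7 days against the knockdown these fits give the same estimate by design, which rests on 1 knockdown library, so that they are not separate checks.

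With the replicate block, a fit with the replicate number as a factor, 34 members and 3857 genes were called between 7 days and the knockdown, and 3 members at 1.5 h. The calls of EPHB3 and KRT14 were lost, both close to the thresholds. The numbers are shared without pairing the libraries. Depth limits the scarcest members, such as FOXS1 and MYL4 at 7 days, which had few reads per library there.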
